A study of Homo sapiens with 18 samples.

Results

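D425 is a human medulloblastoma cell line labelled Group 3, the class of this cerebellar tumour that is known for high MYC. The comparison described here set 3 D425 libraries that carried hairpin 8, a short hairpin RNA against EYA2, beside 3 D425 libraries that carried a non-targeting hairpin, 6 of the 18 libraries in the series. They were chosen by the line and hairpin in their labels, and each hairpin 8 library was read beside the control of the same run (runs 7, 9 and 10, which are replicates 1, 2 and 3). The series also holds D425 with hairpin 6 and the line D458 with its own control, hairpin 7 and hairpin 8, with 3 libraries in each of the 6 groups. All groups, controls included, were transduced with a construct that carries zsGreen, kept in 1 µg/mL puromycin for 48 h, sorted for the brightest 10% and left for 24 h before lysis. The series' design text calls the 3 replicates of a group independent and biological. The protocols mention no cloning step, and each library reads a transduced and sorted population.

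EYA2 belongs to the Eyes absent family, proteins that carry no DNA-binding domain and reach their targets through homeodomain factors such as SIX2. In that complex EYA proteins act as transcriptional coactivators, DACH proteins act as corepressors, and a second, phosphatase activity of EYA acts on other proteins. The network works in the early embryo in eye, ear, muscle and kidney. Group 3 tumours are also known for a photoreceptor-like programme driven by CRX and NRL, with OTX2 as a lineage factor.

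The 6 libraries held 26652764 to 31552051 counts, and all 18 held 21260369 to 31552051. Of 25369 gene symbols, 14850 had enough reads to be tested and 10519 did not. Hairpin 8 libraries held reads for 18641, 17198 and 17766 symbols and controls for 17280, 16952 and 16989. Control libraries 2 and 3 correlated with each other at 0.993 across genes, and control library 1 correlated with them at 0.986 and 0.982. Control 1 thus stood apart from the other controls, and results that rest on it are given with and without it. It correlated with the hairpin 8 libraries at 0.978, 0.984 and 0.980, close to its values with controls 2 and 3. Controls 2 and 3 correlated with the hairpin 8 libraries at 0.954 to 0.977. The labels give replicate 1 an earlier date than replicates 2 and 3. MYC, for whose high level the class is known, was present at 3348, 3660.2 and 3736 CPM in control, where CPM is the count scaled to 1000000 reads of a library after TMM adjustment of its size. The 14 Group 3 markers summed to 5591 to 6434 CPM in control and 4434 to 5248 CPM with hairpin 8, and KCNA1 was at 0 in the controls. MYC was the largest part of these sums, with means of 3580 CPM in control and 2446 CPM with hairpin 8. Levels below are CPM in run order 7, 9 and 10, changes are log2 (hairpin 8 over control) with a standard error, and a gene is called when its p from edgeR's quasi-likelihood test, adjusted by Benjamini-Hochberg over all 14850 genes, is under 0.05 (n = 3 per group). Of the 11 Group 3 markers tested, 3 were called higher and 2 lower, with a median change of 0.27.

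EYA2, the targeted gene, was lower with hairpin 8 than in the control of its run in every run. It stood at 43.6, 24.6 and 15.5 CPM in control and 17.5, 12.0 and 12.7 CPM with hairpin 8. The control levels spread more widely than the fitted change, and the highest hairpin 8 library lay above the lowest control. The fitted change was -0.98 ± 0.27 (adjusted p = 0.017), with run ratios of -1.31, -1.03 and -0.29. Without control 1 it was -0.51 and did not pass (adjusted p = 0.0884), nor did it pass without hairpin 8 replicate 2 (-0.89, adjusted p = 0.0578) or replicate 3 (-0.91, adjusted p = 0.0601).

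Of the 12 genes of the EYA network (EYA proteins, their homeodomain partners and DACH proteins), 10 were tested, 3 were called lower and none higher, with EYA2 itself among the 3. The background was 21.7% of all tested genes called, 11.6% higher and 10.1% lower. SIX2, a homeodomain partner of EYA proteins, fell from 73.6, 90.9 and 98.6 CPM to 41.7, 54.6 and 50.4 CPM, and no hairpin 8 library reached the lowest control. Its change was -0.84 ± 0.11 (adjusted p = 1.5e-04), and it stayed called without any single library. DACH1, the corepressor, fell from 5.23, 10.2 and 7.81 CPM to 2.13, 4.76 and 4.19 CPM, a change of -1.07 ± 0.32 (adjusted p = 0.0252) that did not pass without control 2, control 3 or hairpin 8 replicate 1 (adjusted p up to 0.115). EYA3, a paralog of EYA2, overlapped between the groups (-0.02 ± 0.11, adjusted p = 0.918). SIX3, SIX4, SIX5 and DACH2 had changes of 0.24 ± 0.11, -0.24 ± 0.14, -0.18 ± 0.10 and 0.90 ± 0.60 and did not pass. EYA1 rested on 3 counts in the controls and 14 with hairpin 8. With the replicate number as a block, SIX3 (adjusted p = 0.0395) and EYA1 (adjusted p = 0.0242) passed as higher.

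Across all genes, 3221 of 14850 were called (21.7%), 1716 higher (11.6%) and 1505 lower (10.1%). Of the higher genes, 1703 rose in 3 of 3 run pairs, and of the lower genes 1497 fell in 3 of 3, where 29.2% and 27.7% of all tested genes moved so. With the replicate number as a block 5521 genes were called (37.2%), 2895 higher (19.5%) and 2626 lower (17.7%), with 3218 of the 3221 among them. The count depended on the libraries used: 1591 genes were called without control 3, 877 without replicate 2 and 515 without replicate 3, while 3423 were called without control 1. Without control 2 there were 2086, and without hairpin 8 replicate 1 there were 2044.

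Among the calls of at least 2-fold, rises outnumbered falls. The median change was 0.95 among genes called higher and -0.48 among genes called lower. At least 2-fold were 826 of the 1716 higher genes (5.56% of those tested) and 241 of the 1505 lower genes (1.62%). The controls held the 826 at a median of 0.804 CPM, with 445 of them under 1 CPM, and the 241 at a median of 4.92 CPM, with 27 under 1 CPM. With hairpin 8 the medians were 3.01 CPM for the 826 and 1.515 CPM for the 241. A gene called higher is by that choice lower in control, so the control medians alone do not compare how scarce these genes are. Averaged over the 6 libraries, 297 of the 826 and 50 of the 241 lay under 1 CPM. By mean level over the 6 libraries, 301 higher calls lay under 1 CPM, 535 at 1 to 10, 759 at 10 to 100 and 121 at 100 CPM or more, and 12.7% of genes under 1 CPM were called higher and 2.11% lower. Between 10 and 100 CPM the shares were 11% and 10.9%. At 100 CPM or more they were 5.04% and 20.5%, and the median change was -0.10.

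**Figure D1:**
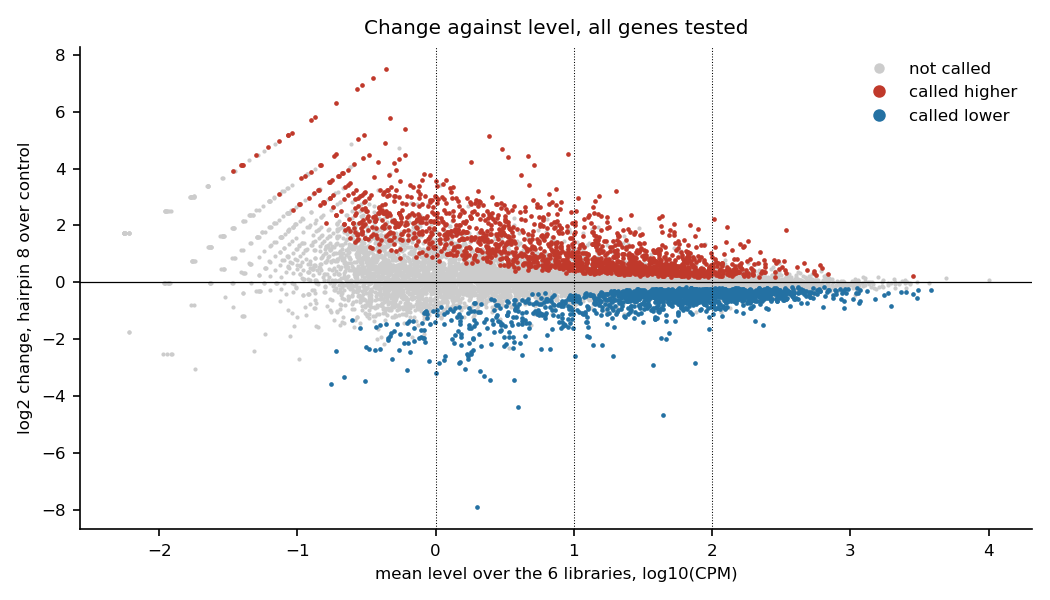
Log2 change with hairpin 8 over control (vertical axis) against the mean level over the 6 D425 libraries, as log10 of CPM (horizontal axis), for 14818 genes; 32 tested genes had no count in these libraries and are not drawn. Dotted lines mark 1, 10 and 100 CPM. Called higher genes (red) lie at all levels and reach farthest from 0 at the left, and called lower genes (blue) crowd to the right just below 0. The straight streaks at the left are genes with few counts, whose fitted change depends on the prior count.

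The lower genes were not spread evenly over the genome. Over the 9305 genes at 10 CPM or more with a chromosome, 645 of the 1248 lower calls (51.7%) lay on chromosomes 3, 9, 17 and 20, which hold 19.4% of these genes and 10.2% of the higher calls. These chromosomes were chosen after the values were seen, so their shares are a description. Their genes were called lower in 35.7% of cases, against 8.0% on the other chromosomes. Leaving them out of the count over all tested genes left 800 lower and 1511 higher calls. The median change on the other chromosomes was -0.003.

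On chromosome 9 the widest gap between tested genes divided 89 genes before it from 286 genes after it. Before the gap the median change was 0.05, with 2 genes called lower. After the gap it was -0.50, and 200 of 286 genes (69.9%) were called lower. The 3 runs gave medians of -0.40, -0.51 and -0.59 after the gap. Relative to the control mean, the same genes lay at -0.16 in control 1 and at 0.06 and 0.11 in controls 2 and 3, a spread smaller than the fall. Hairpin 6 gave -0.47 against the same controls, and hairpin 8 in D458 gave 0.007.

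Chromosome 20, which carries EYA2, had a median change of -0.33 over 262 genes, with 147 (56.1%) called lower and 4 higher. Its run medians were -0.36, -0.32 and -0.33, and the genes before and after its widest gap had medians of -0.31 and -0.35. In D458 the chromosome 20 median with hairpin 8 was -0.07. Chromosome 3 (549 genes, median -0.19, 151 lower) and chromosome 17 (622 genes, median -0.12, 145 lower) moved less, and chromosome 22 (227 genes, median -0.10, 34 lower) was close to chromosome 17. In D458 chromosomes 3 and 17 had medians of -0.08 and -0.09. On chromosome 17 the genes after the widest gap had a median of -0.16, and those before it -0.06.

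**Figure D2:**
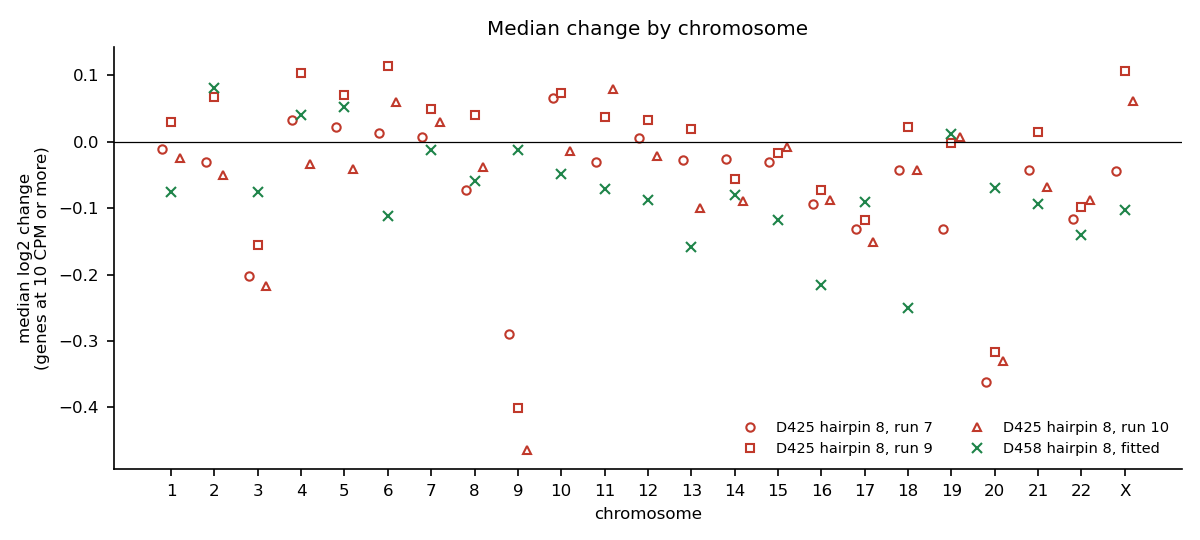
Median log2 change of genes at 10 CPM or more on each chromosome, for hairpin 8 over control in D425 by run (red) and as fitted in D458 (green crosses). In D425, chromosomes 3, 9, 14, 15, 16, 17, 20 and 22 lie below 0 in all 3 runs, with chromosome 9 at -0.29 to -0.46 and chromosome 20 at -0.32 to -0.36. The D458 values of chromosomes 3, 9, 17 and 20 are -0.08, -0.01, -0.09 and -0.07, and the median over all these genes in D458 is -0.06.

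**Figure D3:**
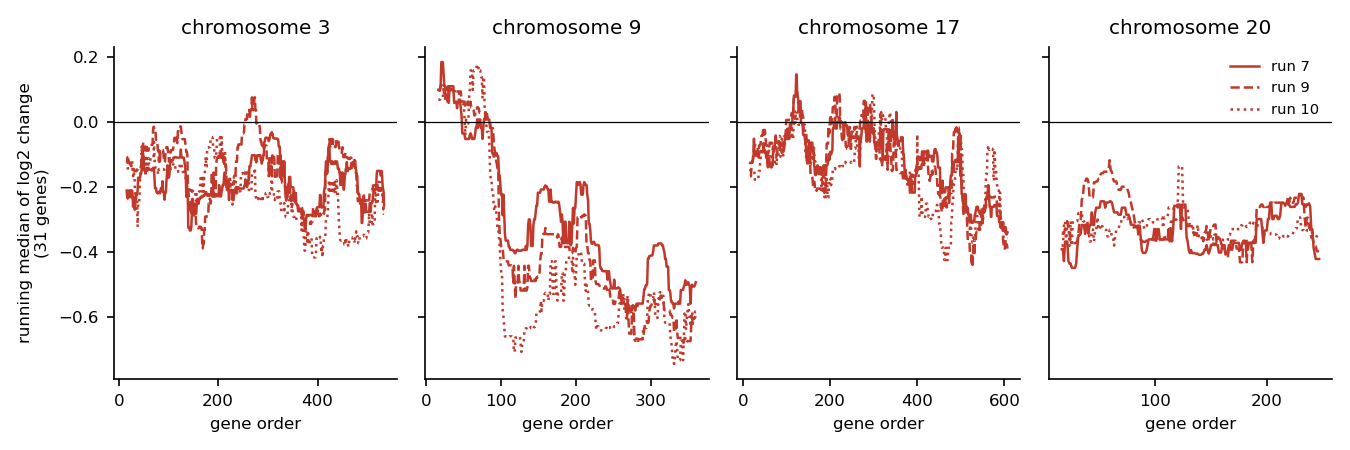
Running median of the log2 change over 31 neighbouring genes at 10 CPM or more, in gene order along chromosomes 3, 9, 17 and 20, drawn for each D425 run. On chromosome 9 all 3 lines step down near gene 89, the last before the widest gap, and stay below 0, on chromosome 20 they lie below 0 throughout, and on chromosome 17 they drop toward the end.

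Of the genes with the largest rises at a mean of 1 CPM or more, most were close to silent in control. STK32B, which encodes a serine/threonine kinase, stood at 0.293, 0.0373 and 0.0635 CPM in control and 5.56, 4.87 and 3.74 CPM with hairpin 8, a change of 5.14 ± 0.51 (adjusted p = 1.5e-05). GLI3, a transcription factor that acts mainly as the repressor arm of Hedgehog signalling, rose from 0.183, 0.485 and 0.54 CPM to 8.12, 9.70 and 9.16 CPM (4.45 ± 0.40, adjusted p = 7.2e-06). KRT17, an epithelial keratin, rose from 0.293, 0.261 and 0.127 CPM to 8.48, 3.66 and 5.38 CPM (4.68 ± 0.52, adjusted p = 4.0e-05). In each of these genes the lowest hairpin 8 library was many times the highest control. CDKN2B, which encodes the CDK4 and CDK6 inhibitor p15, rose from 1.24, 0.41 and 0.0318 CPM to 14.5, 5.23 and 9.39 CPM, and its neighbour CDKN2A from 1.5, 1.12 and 0.857 CPM to 7.32, 4.28 and 3.98 CPM (4.13 ± 0.78 and 2.17 ± 0.50, adjusted p = 0.00194 and 0.0061). Both lie on chromosome 9 before its widest gap, where the median change was 0.05. GRIA1, an AMPA glutamate receptor subunit, rose by 3.76 ± 0.49, COL8A1, a short-chain collagen, by 3.59 ± 0.66, DLX3, a homeobox factor, by 3.56 ± 0.67 and SLCO4A1, an organic anion transporter, by 3.44 ± 0.58 (adjusted p up to 0.00156).

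SLC12A7, a potassium-chloride cotransporter, differed from the rest. It stood at 0.366, 1.23 and 0.699 CPM in control and 48.5, 1.94 and 1.67 CPM with hairpin 8, so its change of 4.50 ± 1.26 (adjusted p = 0.0199) came largely from run 7. Without hairpin 8 replicate 1 it was 1.24 and did not pass (adjusted p = 0.387), nor did it pass without control 1 (4.18, adjusted p = 0.0509) or control 3 (4.44, adjusted p = 0.0757).

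The largest falls included genes at up to 101 CPM in a control library. KLKB1, plasma prekallikrein, had 338 counts over the controls and 1 count over the hairpin 8 libraries, a ratio of 342.4 with a counting interval of 61.0 to 13565.3 at 95%. C1QL1, a secreted C1q-like protein that organises synapses of the cerebellum, fell from 58.1, 101 and 96.9 CPM to 2.43, 4.98 and 2.65 CPM (-4.67 ± 0.30, adjusted p = 6.3e-07). C1QL4, of the same family, fell from 33.3, 84.9 and 78.4 CPM to 5.16, 13.4 and 7.49 CPM (-2.92 ± 0.37, adjusted p = 1.3e-04). The kisspeptin receptor KISS1R fell from 2.49, 10.4 and 9.81 CPM to 0.133, 0.585 and 0.374 CPM (-4.37 ± 0.61, adjusted p = 3.0e-04). Control 1 was the lowest control for all 10 genes with the largest falls, and the hairpin 8 libraries were lower still. TNFRSF8, the receptor CD30, fell from 1.17, 5.33 and 5.62 CPM to 0.366, 0.439 and 0.408 CPM. C3orf70 (-3.44 ± 0.61), EPB41L4A (-3.21 ± 0.48) and the zinc finger genes ZNF98 (-3.43 ± 0.47), ZNF732 (-3.12 ± 0.39) and ZNF876P (-3.04 ± 0.45) completed the 10. The zinc finger genes have close copies, and how reads shared between copies were counted is not given, so their values are uncertain.

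**Figure D4:**
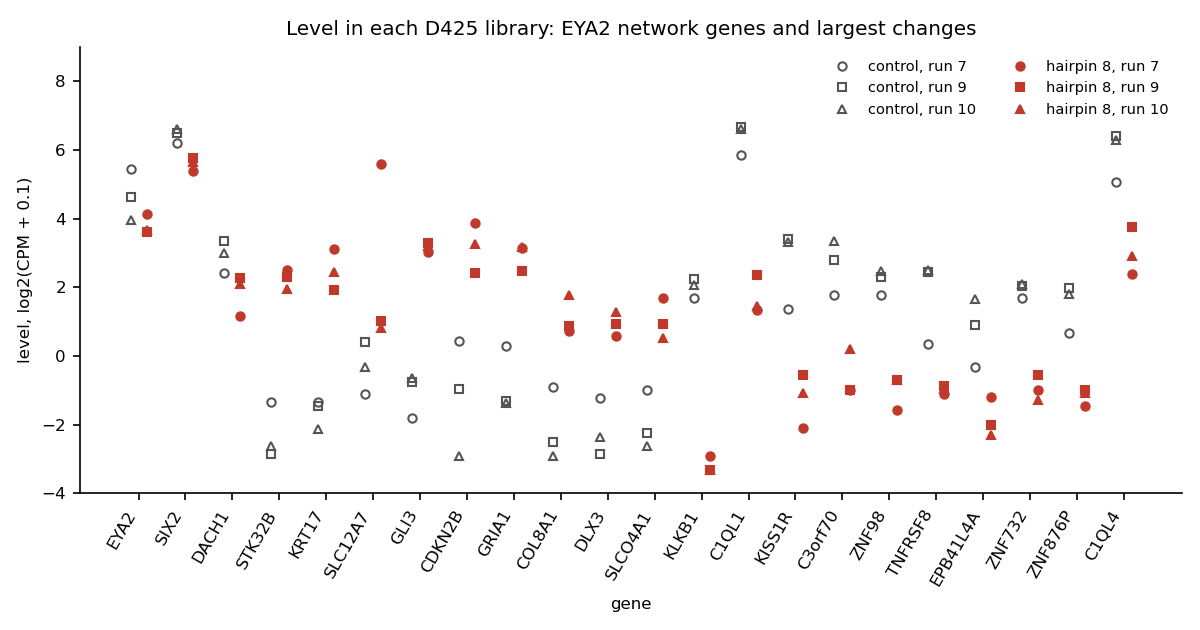
Level of EYA2, SIX2 and DACH1 and of the genes with the largest called changes in each of the 6 D425 libraries, on a log2(CPM + 0.1) scale; open grey symbols are controls, filled red symbols are hairpin 8, and the shape gives the run. EYA2 overlaps between the groups, SIX2 and the genes of the largest changes do not, and SLC12A7 stands high in a single hairpin 8 library.

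The rule also took the genes at 20 CPM or more with the smallest p values that were not among the largest changes. BMP7, a secreted bone morphogenetic protein, rose from 25.8, 16.4 and 17.1 CPM to 64.6, 71.0 and 66.0 CPM (1.76 ± 0.14, adjusted p = 2.4e-06), although it lies on chromosome 20. HMGA2, an architectural chromatin protein of embryonic cells, rose from 84.6, 61.5 and 61.2 CPM to 177, 222 and 149 CPM (1.40 ± 0.16, adjusted p = 4.0e-05). EIF4EBP2, a repressor of cap-dependent translation, rose from 237, 215 and 221 CPM to 385, 380.2 and 354 CPM (0.73 ± 0.07, adjusted p = 9.7e-06). HBE1, embryonic beta-like globin, rose by 3.22 ± 0.33, with the caution that globin genes have close copies. TENM3 (1.2 ± 0.12), CHST2 (1.30 ± 0.14), CRYBG3 (1.14 ± 0.09), ATP8A1 (1.05 ± 0.11), SH2D2A (0.99 ± 0.09) and RCBTB1 (0.90 ± 0.08) were the others. In the other direction, CTSV, a lysosomal cysteine protease, fell from 343, 389 and 314 CPM to 110.4, 138 and 118 CPM (-1.51 ± 0.13, adjusted p = 6.9e-06). IDH1, cytosolic isocitrate dehydrogenase, fell from 232, 243 and 277 CPM to 117, 130.3 and 153 CPM (-0.91 ± 0.09, adjusted p = 2.6e-05). NDN, the imprinted growth suppressor necdin, fell by -1.11 ± 0.10 and KREMEN2, a coreceptor of the WNT inhibitor DKK1, by -1.24 ± 0.15. Of the 10 lower genes in this set, CTSV, DOLPP1, TRAF2 and URM1 lie on chromosome 9 and PIK3R4 on chromosome 3.

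Gene lists written from general knowledge were then read against the background of 11.6% higher and 10.1% lower, with a median change of 0.02 over all tested genes. That background varies with level. Between 1 and 10 CPM 16.9% of genes were called higher and 6.53% lower, and at 100 CPM or more 5.04% and 20.5%. The median change was 0.53 under 1 CPM and -0.10 at 100 CPM or more. The lists were not matched for level, and its part in their shares was not tested. Counts and medians describe each list, and no test of a list was made. Calls lost on leaving out a library are named where they apply.

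**Figure D5:**
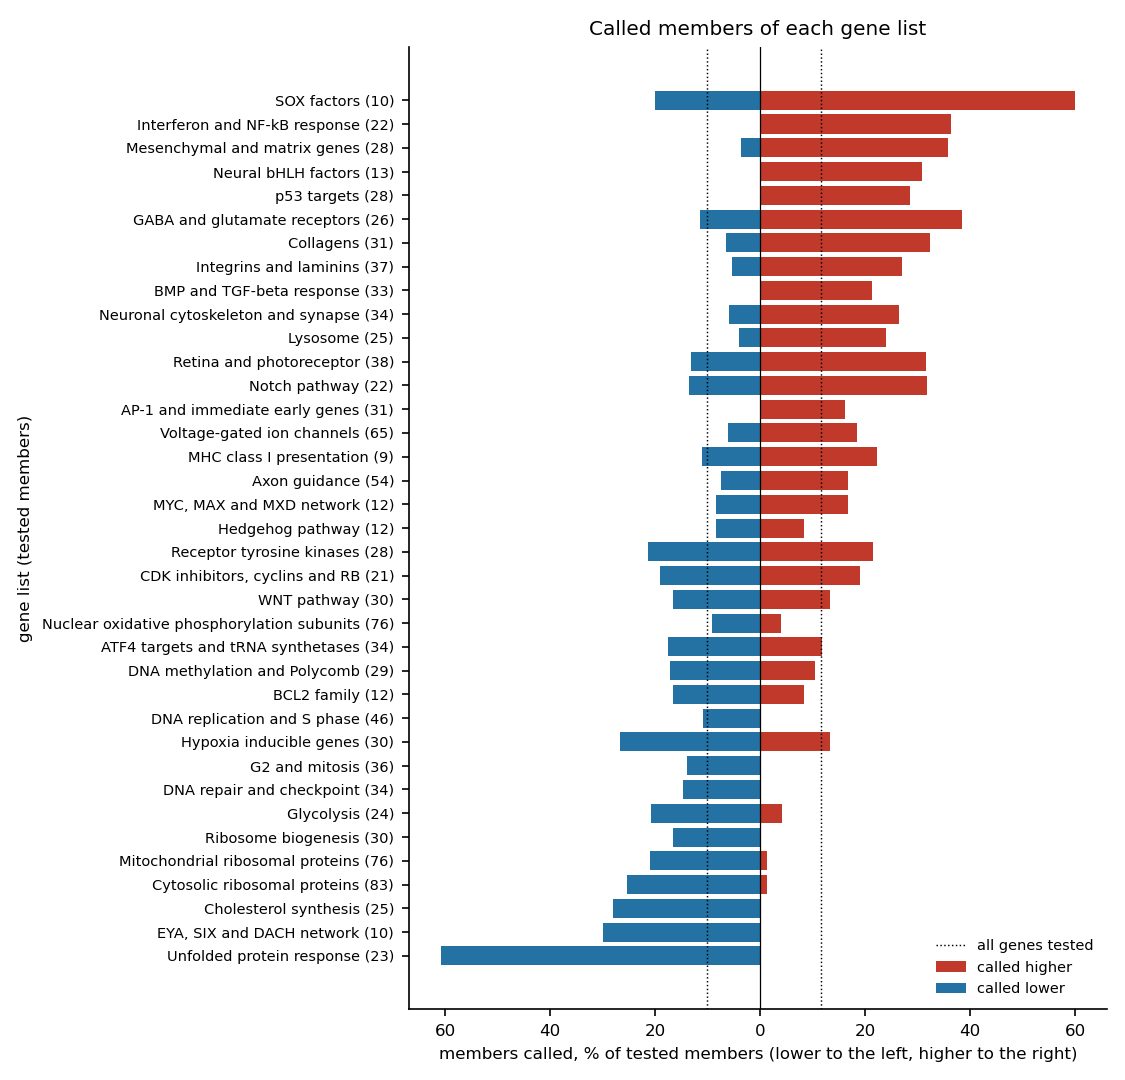
Share of tested members of each gene list that were called higher (red, to the right) or lower (blue, to the left) with hairpin 8, in percent, with the number of tested members in brackets; the dotted lines are the shares over all tested genes, 11.6% and 10.1%. The unfolded protein response list reaches farthest to the left and the SOX list farthest to the right.

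The unfolded protein response list, made of chaperones and enzymes that fold proteins in the endoplasmic reticulum (ER), gave lower calls and no higher ones. Its genes are induced through the sensors ATF6, IRE1 and PERK when unfolded protein builds up, partly through a promoter element, the ER stress response element (ERSE). Of 23 list members, 14 were called lower and none higher, with a median change of -0.38, and 9 of the 17 members outside chromosomes 3, 9, 17 and 20 were among the 14. HSPA5, the main luminal HSP70 chaperone, fell from 1321, 1122 and 1106 CPM to 657, 602 and 626 CPM, with no overlap (-0.91 ± 0.12, adjusted p = 1.4e-04). MANF, a secreted ER-resident factor, fell from 147, 121 and 116 CPM to 75.9, 68.6 and 73.0 CPM (-0.82 ± 0.10, adjusted p = 7.9e-05). The disulfide isomerases PDIA4 and PDIA3 fell by -0.63 ± 0.08 and -0.52 ± 0.07. Control 1 was the highest control for these 4 genes, and the hairpin 8 libraries lay below every control. Hairpin 8 in D458 gave a list median of -0.39 against its own controls.

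The ERSE letters, CCAAT and CCACG with any 9 bases between them, were searched on both strands in the 250 bases before each gene's start (RefSeq, GRCh38.p14), and any match contains a CCAAT box. They were found in 22 of 27305 promoters (0.08%) and in 6 of the 22 list members with a promoter entry, HSPA5, HSP90B1, CALR, CANX, CRELD2 and XBP1. All of these but CANX were called lower, where 13 of the 22 members searched were. The list holds known members of a response that works partly through this element, so its share is a description, not a test. A match describes letters, not a bound site. The 4 promoters below are shown because the genes are the best known of this response, on the gene's strand with the match in capitals, and HSP90B1 has 2 matches. HSP90B1, CALR and XBP1 fall outside the naming rule and were chosen for their promoters.
HSPA5, chr9:125241344-125241593, minus strand: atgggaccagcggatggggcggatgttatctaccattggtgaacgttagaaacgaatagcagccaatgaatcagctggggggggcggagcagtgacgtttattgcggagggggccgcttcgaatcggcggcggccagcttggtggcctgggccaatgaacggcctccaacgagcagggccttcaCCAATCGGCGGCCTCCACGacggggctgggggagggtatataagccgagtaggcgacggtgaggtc
HSP90B1, chr12:103930160-103930409, plus strand: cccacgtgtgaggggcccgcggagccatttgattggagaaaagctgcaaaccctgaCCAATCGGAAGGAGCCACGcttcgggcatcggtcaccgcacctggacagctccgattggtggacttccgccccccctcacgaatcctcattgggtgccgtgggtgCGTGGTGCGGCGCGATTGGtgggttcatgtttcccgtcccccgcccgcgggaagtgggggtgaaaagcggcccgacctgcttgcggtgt
CALR, chr19:12938359-12938608, plus strand: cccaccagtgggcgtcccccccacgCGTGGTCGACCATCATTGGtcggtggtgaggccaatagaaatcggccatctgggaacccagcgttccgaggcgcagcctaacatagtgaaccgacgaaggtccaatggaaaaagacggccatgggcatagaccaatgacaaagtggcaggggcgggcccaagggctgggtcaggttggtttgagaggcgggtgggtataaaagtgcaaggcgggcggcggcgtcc
XBP1, chr22:28800570-28800819, minus strand: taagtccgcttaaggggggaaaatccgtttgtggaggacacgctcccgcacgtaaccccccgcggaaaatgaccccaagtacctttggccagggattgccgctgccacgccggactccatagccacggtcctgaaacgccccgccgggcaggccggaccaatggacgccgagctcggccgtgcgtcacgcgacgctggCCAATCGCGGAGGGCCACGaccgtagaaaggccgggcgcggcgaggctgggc

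Of the genes behind these promoters, HSP90B1, the ER form of HSP90, fell from 1015, 854 and 793 CPM to 612, 594 and 611 CPM (-0.55 ± 0.09, adjusted p = 5.5e-04). XBP1, the transcription factor made active by IRE1 splicing, fell from 99.2, 77.0 and 79.6 CPM to 69.3, 59.1 and 58.5 CPM (-0.45 ± 0.12, adjusted p = 0.0115), and without control 1 it did not pass (adjusted p = 0.0506). The lectin chaperone CALR fell by -0.25 ± 0.08 (adjusted p = 0.0285), a small change that did not pass without control 1, control 2 or hairpin 8 replicate 2 or 3 (adjusted p up to 0.132).

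Among genes of cell division the share of lower calls was near the background of 10.1%. Of 36 genes of G2 and mitosis, 5 were called lower and none higher, all 36 had a change below 0, and with the block 25 were called lower, where the background was 17.7%. The median was -0.39, and by run -0.26, -0.26 and -0.62. Of the 5, AURKA, TPX2, UBE2C and CDC25B lie on chromosome 20 and FOXM1, outside the naming rule, on chromosome 12. AURKA, a spindle kinase, fell from 122, 139 and 162 CPM to 69.7, 88.8 and 67.7 CPM (-0.90 ± 0.21, adjusted p = 0.00712). UBE2C, the conjugating enzyme of the anaphase-promoting complex, fell by -0.85 ± 0.20. TPX2, CDC25B and FOXM1 did not pass without some single libraries (adjusted p up to 0.058, 0.148 and 0.148). Of 46 genes of DNA replication, 5 were called lower and 18 with the block, with a median of -0.21. Of these 5 calls, 3 lie on chromosomes 3, 9, 17 and 20, with 2 of them on chromosome 20. Elsewhere 2 of 39 members were called lower, with a median of -0.203, where 800 of 12181 tested genes were. GINS1, a subunit of the replicative helicase, fell by -0.73 ± 0.16 (adjusted p = 0.00527), and PCNA, TYMS and TK1 each lost the call without at least 1 library (adjusted p up to 0.162).

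Several cell cycle inhibitors and targets of p53 rose. p53 is a stress-activated transcription factor, and among the genes it induces are the CDK inhibitor CDKN1A and the death receptor FAS. Of 28 p53 targets tested, 8 were called higher and none lower, and with the block 16 were higher and 1 lower, with a median of 0.32. PLK2, a kinase, rose from 0.146, 0.708 and 0.476 CPM to 1.86, 1.02 and 1.40 CPM (1.68 ± 0.35, adjusted p = 0.00348). PMAIP1, the BH3-only protein NOXA, rose from 10.9, 11.2 and 10.5 CPM to 16.2, 21.6 and 15.6 CPM (0.71 ± 0.16, adjusted p = 0.00563). FAS had no count in control and 22 counts with hairpin 8, which puts it at least 2.39-fold higher against a floor of 3 counts per library.

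CDKN1A, named outside the rule because it is the best known of these targets, stood at 0.475, 7.83 and 1.71 CPM in control and 9.85, 34.3 and 36.6 CPM with hairpin 8. The libraries of run 7 were the lowest in both groups, and within each run hairpin 8 was higher (4.16, 2.12 and 4.36). Its change was 3.03 ± 0.95 (adjusted p = 0.0336), which did not pass without control 1, control 3 or hairpin 8 replicate 2 or 3 (adjusted p up to 0.126), and it passed with the block (adjusted p = 7.8e-04). MDM2, the ubiquitin ligase of p53, likewise outside the rule, stood at 67.8, 154 and 113 CPM and 83.3, 201 and 133 CPM and passed only with the block (0.32 ± 0.33, adjusted p = 0.533, and 0.00233 with it). Among 21 cyclins, CDK inhibitors and RB family genes, 4 were called higher and 4 lower. Cyclin E, CCNE1, fell from 28, 26.5 and 31.2 CPM to 15.2, 17.6 and 15.5 CPM (-0.83 ± 0.13, adjusted p = 3.8e-04), and E2F1, a transcription factor of S phase entry that lies on chromosome 20, fell by -0.74 ± 0.15. CCND2, a D-type cyclin outside the naming rule, went the other way and rose by 3.85 (adjusted p = 0.0116). It lost the call without control 3 or hairpin 8 replicate 1 (adjusted p up to 0.0617).

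MYC fell from 3348, 3660.2 and 3736 CPM to 2314, 2756 and 2271 CPM, a change of -0.55 ± 0.10 (adjusted p = 9.4e-04) with every hairpin 8 library below every control. Of the 12 tested genes of the MYC, MAX and MXD network, it was the 1 called lower. MYCN and MLXIPL were called higher at low level, MYCN from 7 counts to 46, and both lost the call without single libraries (adjusted p up to 0.113 and 0.212). Of 30 genes of ribosome biogenesis, a process known to be driven by MYC, 5 were called lower and none higher, with a median of -0.12. By run the list medians were -0.167, 0.06 and -0.212, so the list was not lower in every run. Among all tested genes at 100 CPM or more, 20.5% were called lower, with a median change of -0.10. A link between the MYC fall and this list was not tested. NOP56, a core protein of snoRNPs on chromosome 20, fell by -0.52 ± 0.10 and BOP1, a processing factor of the large subunit, by -0.49 ± 0.10.

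Of 83 cytosolic ribosomal protein genes, 21 were called lower and 1 higher, 40 lower with the block, with a median of -0.15. Chromosomes 3, 9, 17 and 20 hold 20 of the 83, and 11 of these were called lower, against 10 of the other 63. Over all tested genes 705 of 2669 on these chromosomes and 800 of 12181 elsewhere were called lower. RPL7A and RPL35, large subunit proteins on chromosome 9, fell by -0.85 ± 0.11 and -0.66 ± 0.08. These genes have many processed copies, so their counts are uncertain. Among 76 mitochondrial ribosomal proteins, 16 were called lower and 1 higher, and 13 of the 16 lie on those 4 chromosomes. Nuclear subunits of oxidative phosphorylation gave 7 lower and 3 higher of 76, with 5 of the 7 there.

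A part of the matrix genes rose. Collagens and other matrix proteins are made chiefly by mesenchymal cells, and tumour cells can make them too. Of 31 collagens tested, 10 were called higher, each at least 2-fold, and 2 lower, with a median of 1.02, and 15 were higher with the block. COL1A1, the main chain of type I collagen, rose from 5.38, 3.24 and 1.87 CPM to 21, 21.6 and 32.5 CPM (2.84 ± 0.39, adjusted p = 2.1e-04). COL25A1 (2.45 ± 0.46) and COL19A1 (2.44 ± 0.57) were higher at low level. Of 28 mesenchymal and matrix genes, 10 were called higher and 1 lower, with a median of 0.58. MMP2, a gelatinase, rose from 202, 147 and 99.6 CPM to 379, 526 and 709.6 CPM (1.85 ± 0.26, adjusted p = 3.0e-04), and run 10 had both its lowest control and its highest hairpin 8 library. LOXL2, a collagen cross-linking enzyme, and TIMP2, an inhibitor of matrix proteases, rose by 1.28 ± 0.27 and 2.53 ± 0.56.

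Genes that mark fibroblasts moved with this group. The 9 fibroblast markers summed to 18.5 to 33.1 CPM in control and 51.7 to 96.4 CPM with hairpin 8, and 3 of the 6 tested were called higher. POSTN, FAP and THY1 were at 0 in every control. POSTN had 51 counts with hairpin 8, at least 5.60-fold higher against the same floor, and LUM rose from 1 count to 47, with its call lost without control 3 or hairpin 8 replicate 3. The 8 epithelial markers summed to 77.1 to 206 CPM and 170 to 299 CPM (1 of 3 tested called higher), with KRT14 at 0 in control. The 6 endothelial markers summed to 1.56 to 2.91 CPM and 4.28 to 6.78 CPM (1 of 2 called higher), and the 9 glial markers to 43.9 to 53.4 CPM and 17.7 to 31.8 CPM, mostly SLC1A3, which fell (-0.99 ± 0.18, adjusted p = 0.00148). None of 4 tested leukocyte markers was called. A marker at or near 0 in control could be tested only where libraries of other groups held enough reads. The shares of tested markers called are therefore descriptions, not tests. The part of other cells in the matrix result was not tested, and in bulk RNA fewer cells of a type and less RNA per cell cannot be told apart.

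Adhesion receptors and basement membrane genes gave 10 higher and 2 lower calls of 37 tested. LAMB1, a laminin chain, rose from 347, 342 and 312 CPM to 459, 470.5 and 535 CPM (0.55 ± 0.09, adjusted p = 4.3e-04), and ITGA2, the collagen-binding integrin chain, rose from 1.68, 0.224 and 0.349 CPM to 6.49, 4.46 and 4.73 CPM (2.80 ± 0.55, adjusted p = 0.00208).

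Photoreceptor genes were mixed, with more members higher. Rods and cones signal through a G protein, a cyclic GMP phosphodiesterase and a cyclic nucleotide-gated channel, and Group 3 tumours express parts of this set. Of 38 retina and photoreceptor genes tested, 12 were called higher and 5 lower, with a median of 0.61. PDE6B, the rod phosphodiesterase beta subunit, rose from 1.90, 1.04 and 1.46 CPM to 12.5, 6.70 and 8.78 CPM (2.66 ± 0.41, adjusted p = 4.8e-04). IMPG1, a proteoglycan of the matrix around photoreceptors, rose from 1.02, 1.64 and 0.953 CPM to 5.99, 6.81 and 10.0 CPM (2.66 ± 0.39, adjusted p = 2.9e-04). RP1, a microtubule protein of the outer segment, rose by 1.61 ± 0.26, and EYS, which is needed by photoreceptors and is a Group 3 marker, rose from 6.55, 6.53 and 6.10 CPM to 15.8, 13.4 and 17.8 CPM (1.30 ± 0.12, adjusted p = 7.2e-06). RAX, the homeobox factor of the early eye field, fell from 6.11, 7.23 and 4.70 CPM to 1.33, 1.17 and 1.74 CPM (-2.08 ± 0.33, adjusted p = 4.9e-04). The regulators OTX2, CRX and NRL, outside the naming rule, had changes of -0.24 ± 0.12, -0.16 ± 0.18 and 0.68 ± 0.33 and did not pass, and with the block OTX2 passed as lower (adjusted p = 0.0034) and NRL as higher (adjusted p = 0.0125). GABRA5, a GABA receptor subunit that marks Group 3, fell from 26.2, 29.6 and 31.3 CPM to 11.6, 20.7 and 12.7 CPM (-0.95 ± 0.20, adjusted p = 0.00347).

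Neural transcription factors gave more higher than lower calls. Of 10 SOX genes tested, 6 were called higher and 2 lower. SOX4, a factor of neural precursors, rose from 73.0, 61.6 and 57.5 CPM to 109, 117 and 104 CPM (0.78 ± 0.11, adjusted p = 1.7e-04), and SOX6 from 6.69, 3.77 and 2.06 CPM to 21.5, 17.1 and 19.4 CPM (2.22 ± 0.33, adjusted p = 3.0e-04). SOX5 rose by 2.88 ± 0.44 at low level, and SOX12, on chromosome 20, fell by -0.44 ± 0.07. Of 13 neural bHLH factors, 4 were called higher and none lower. NEUROD1, a factor of neuronal differentiation, rose from 68.8, 53.8 and 27.1 CPM to 125, 137 and 113 CPM (1.33 ± 0.23, adjusted p = 0.00103), and ATOH8 from 38.3, 18 and 8.10 CPM to 81.1, 72.7 and 78.4 CPM (1.86 ± 0.34, adjusted p = 0.00155). Both had wide control spreads with control 1 highest, and for both every hairpin 8 library lay above every control. BHLHE41, a repressor of the circadian loop, rose by 0.98 ± 0.16.

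Genes of neuronal structure and excitability also gave more higher than lower calls. Among 34 genes of neuronal cytoskeleton and synapse, 9 were called higher and 2 lower, and SYT1, the calcium sensor of vesicle release, rose from 51.3, 44.9 and 36.3 CPM to 87.1, 80.9 and 99.4 CPM (1.01 ± 0.13, adjusted p = 9.6e-05). SYP, synaptophysin, rose from 58.6, 21.4 and 18.2 CPM to 124, 71.8 and 82.8 CPM (1.5 ± 0.34, adjusted p = 0.0056). Of 26 GABA and glutamate receptors, 10 were called higher and 3 lower, the largest fall in GRIN1, the obligate NMDA receptor subunit (-2.17 ± 0.39, adjusted p = 0.00106). The list headed voltage-gated ion channels also holds KCNJ11, an ATP-sensitive potassium channel that is not gated by voltage. This list gave 12 higher and 4 lower of 65, and 25 higher with the block. KCNJ11 and CACNA1G, a T-type calcium channel, rose by 1.35 ± 0.25 and 1.45 ± 0.29. Of 54 axon guidance genes, 9 were called higher and 4 lower, and 20 higher with the block. The secreted repellents SEMA3F and SEMA3G rose by 1.26 ± 0.20 and 1.26 ± 0.21, while PLXND1, a semaphorin receptor on the same chromosome 3, fell from 57.2, 96.2 and 77.5 CPM to 26.5, 34.4 and 29.5 CPM (-1.35 ± 0.18, adjusted p = 1.5e-04).

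Signalling pathways gave calls in both directions. In the Notch pathway, where HES and HEY repressors are the direct targets, 7 of 22 genes were called higher and 3 lower. HEYL rose from 14.8, 10.1 and 7.21 CPM to 28.1, 28.3 and 34.0 CPM (1.5 ± 0.18, adjusted p = 6.3e-05) and MAML2, a coactivator of the complex, from 10.8, 10.6 and 7.11 CPM to 18.6, 21.2 and 24.4 CPM (1.18 ± 0.17, adjusted p = 2.0e-04). JAG1 and HES1 were higher too, and each lost the call without some libraries (adjusted p up to 0.0678 and 0.0932). Of 33 genes of BMP and TGF-beta response, 7 were called higher and none lower, with BMP7 above, TGFB3, a ligand (1.76 ± 0.31), and CHRD, an antagonist of BMPs (1.08 ± 0.21), among them. WNT genes gave 4 higher and 5 lower of 30: CTNNB1, beta-catenin itself, rose by 0.41 ± 0.08, and the receptor FZD4 and the nuclear factor TCF7 fell by -1.13 ± 0.24 and -0.84 ± 0.15. Of 12 Hedgehog genes, GLI3 was called higher and the receptor PTCH1, on chromosome 9, lower (-0.51 ± 0.11). Receptor tyrosine kinases gave 6 higher and 6 lower of 28, with FGFR2 at 1.08 ± 0.17 and ROR1 at 2.14 ± 0.41 against FGFR3 at -1.41 ± 0.25 and ROR2 at -0.91 ± 0.16.

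Of 22 interferon and NF-kB response genes, 8 were called higher and none lower, with a median of 0.96. CCL2, a monocyte chemokine, rose from 2.38, 3.43 and 1.49 CPM to 14.1, 19.1 and 23.5 CPM (2.96 ± 0.35, adjusted p = 3.6e-04). TNFAIP3, an inhibitor of NF-kB, stood at 2.05, 1.34 and 0.794 CPM and 34.2, 2.67 and 3.20 CPM, and without hairpin 8 replicate 1 its change was 1.08 and did not pass (adjusted p = 0.23), nor did it pass without control 2 or 3 (adjusted p up to 0.0741). USP18 and IFI44L lost their calls without some libraries (adjusted p up to 0.0737 and 0.129). Of 9 genes of class I antigen presentation, 2 were called higher and 1 lower, PSMB10, an immunoproteasome subunit (-0.46 ± 0.10, adjusted p = 0.00343). Of the 9, 7 had a change above 0, with a median of 0.57, and with the block 7 were called higher and 1 lower. Of 31 immediate early genes and AP-1 subunits, 5 were called higher and none lower, 13 higher and 4 lower with the block. JUN rose from 25.5, 11.4 and 12.5 CPM to 50.9, 37.5 and 39.6 CPM (1.38 ± 0.29, adjusted p = 0.00347), JUNB by 0.57 ± 0.10 and the ERK phosphatase DUSP5 by 1.29 ± 0.22.

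Several genes of metabolism fell. Of 30 genes induced by hypoxia, 8 were called lower and 4 higher. SLC16A3, the lactate exporter MCT4, fell from 61.6, 160.2 and 177 CPM to 8.72, 19.1 and 27.4 CPM (-2.85 ± 0.50, adjusted p = 0.0012). PFKFB3, which makes an activator of glycolysis, fell from 201, 313 and 373 CPM to 100.3, 135 and 109 CPM (-1.37 ± 0.19, adjusted p = 2.3e-04). EGLN3, a prolyl hydroxylase that marks HIF proteins for decay, fell by -1.10 ± 0.16 and NDUFA4L2, a mitochondrial protein, by -2.70 ± 0.40. Control 1 was the lowest control for each of the 4, and the hairpin 8 libraries were lower still. Glycolysis gave 5 lower and 1 higher of 24, 12 lower and 4 higher with the block, and ALDOA fell by -0.31 ± 0.07. Of 25 cholesterol genes, 7 were called lower and none higher. SREBF1, FDPS and FDFT1 each lost the call without some libraries (adjusted p up to 0.0618, 0.0611 and 0.0975). ATF4 targets and tRNA synthetases gave 6 lower and 4 higher of 34, and 4 of the 6 lie on chromosomes 9 and 20, PSAT1, IARS, TRIB3 and CEBPB. Lysosomal genes went the other way, 6 higher and 1 lower of 25, with the protease CTSD at 0.77 ± 0.13, acid ceramidase ASAH1 at 0.92 ± 0.19 and the calcium channel MCOLN1 at 0.57 ± 0.08.

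Chromatin regulators of DNA methylation and Polycomb gave 5 lower and 3 higher of 29. PHF19, a Polycomb-like protein on chromosome 9, fell from 77.2, 104 and 112 CPM to 37.3, 46.4 and 51.5 CPM (-1.12 ± 0.19, adjusted p = 7.5e-04), and DNMT3B, on chromosome 20, fell by -0.95 ± 0.24 and lost the call without control 3 or hairpin 8 replicate 1 (adjusted p up to 0.0683). Of 34 DNA repair genes, 5 were called lower and none higher, 10 lower and 2 higher with the block.

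Hairpin 8 and hairpin 6 target the same gene, and setting them against each other uses no control library. No gene was called by edgeR (0% of 14850) with or without the block, 519 genes had an unadjusted p under 0.05 (3.49%), and DESeq2 called 6. Without hairpin 8 replicate 2, edgeR called 16. EYA2 was 0.25 ± 0.28 with hairpin 8 over hairpin 6, MYC -0.12 ± 0.10, SIX2 -0.12 ± 0.11 and C1QL1 -0.40 ± 0.29. The medians of the genes after the chromosome 9 gap and of chromosome 20 differed between the hairpins by -0.03 and -0.04. These values do not show that the hairpins act alike.

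The hairpin 8 change was also set against that of the same hairpin in D458, as the change in D458 minus that in D425. Of 14850 genes, 1758 differed (11.8%), 919 with a higher change in D458 (6.19%) and 839 with a lower one (5.65%), and 3934 with the block (26.5%). Ribosomal proteins were a part of this: 22 of the 83 cytosolic ones had a higher change in D458 and none a lower one, with list medians of -0.15 in D425 and 0.07 in D458. RPL7A differed by 1.01 ± 0.15 (adjusted p = 6.8e-04). For the unfolded protein response, 2 of 23 members differed, both with a lower change in D458. SIX2, which fell in D425, had a change of -0.04 in D458 and differed by 0.81 ± 0.16 (adjusted p = 0.00512), whereas for EYA2 the difference was -0.81 ± 0.38 and did not pass (adjusted p = 0.177). CTSV went opposite ways, lower in D425 and 1.16 in D458, a difference of 2.67 ± 0.20 (adjusted p = 3.4e-06), as did IDH1 (0.51 in D458, difference 1.42 ± 0.13) and PLXND1 (1.46 in D458, difference 2.82 ± 0.26). NEUROD1 and HMGA2, both higher in D425, had changes of -0.13 and -0.41 in D458 and differed by -1.46 ± 0.32 and -1.81 ± 0.22 (adjusted p = 0.00995 and 1.0e-04). CRISPLD1, a secreted protein, was among the largest differences: it stood at 3.69, 10.2 and 7.94 CPM and 2.20, 5.01 and 6.50 CPM in D425, with overlap, and at 0.178, 0 and 0.0417 CPM and 4.25, 1.87 and 2.21 CPM in control and hairpin 8 of D458. BRDT, a bromodomain protein of the testis, moved the other way, from 2.30, 1.16 and 0.699 CPM to 1.33, 3.44 and 3.03 CPM in D425, not called, and from 1.47, 3.03 and 2.13 CPM to 0, 0.13 and 0.127 CPM in D458. The other genes that the rule names for this difference were also at or close to 0 in at least 1 of the 4 groups, and no log2 difference is given for genes with a group mean under 0.1 CPM. GLI3 was among these, at 0, 0.0489 and 0.125 CPM and 0.0752, 0 and 0 CPM in D458.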

How the data were processed

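Poly(A) RNA was read in 18 libraries, and this text uses the 3 D425 control and 3 D425 hairpin 8 libraries, with the D425 hairpin 6 and D458 libraries for comparison. The authors deposited raw counts of reads per gene symbol as whole numbers. The submitters' processing notes name TopHat2, Bowtie2, HTSeq, SAMtools, Picard, FastQC and bcl2fastq, and the builds hg19 and GRCh37, with no order. The libraries were strand-specific, per the labels' protocols, and the strand setting of the counting is not given in the sources used here, so overlapping antisense genes and close copies are uncertain.

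Counts were analysed with R 4.3.3, edgeR 4.0.16 and limma 3.58.1, with DESeq2 1.42.0 as an alternative. Genes were kept with filterByExpr (minimum count 10), libraries were scaled by TMM, and edgeR's quasi-likelihood fit (robust) took in all 18 libraries, each group having its own coefficient. It left 12 residual degrees of freedom, and the common biological variation came to 0.153. A call needed an adjusted p (Benjamini-Hochberg, 14850 genes) under 0.05. CPM are TMM-scaled, and run ratios are log2 with a prior count of 2. Depth was 21260369 to 31552051 counts per library. Intervals and floors cover counting error only.

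Samples were grouped by their titles. The replicate numbers were taken to pair the libraries. The fit with the number as a block (8 residual degrees of freedom) stands beside the main one for named genes whose call it changes. For the gene lists its counts are given in some cases only. Deviations of hairpin 8 and control libraries with the same number correlated at 0.385, 0.139 and 0.100 across genes. Among different numbers, those of replicates 2 and 3, which share a date in the labels, correlated at 0.186 and 0.195 and the others at -0.281 to -0.211. These values set replicate 1 apart, but they do not show that replicates 2 and 3 pair by number. Chromosomes came from RefSeq GRCh38.p14 for 14503 symbols, used for names and gene order. The script was tested on simulated data.

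The genes and lists were chosen with earlier results of these data known. The rule names the EYA network genes; the 10 higher and 10 lower called genes with the largest change at 1 CPM or more that moved alike in 3 run pairs; the 10 each way with the smallest p at 20 CPM or more; up to 4 called genes with the smallest p per list; and 5 each way for the difference between lines. Not every gene so named is printed. Alternatives were RLE factors, DESeq2, no filter, the block, fewer libraries and each library or number left out.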

Additional observations from a re-analysis of the deposited data

Results flagged for a closer look

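The fitted effect of hairpin 8 was tested for a difference between the lines, as the log2 change in D458 minus that in D425 (edgeR quasi-likelihood, n = 3 per group). 1758 genes differed at an adjusted p under 0.05, of which the text names 58, with CCND2 left out of that count. Sizes are given for the 54 whose mean was at least 0.1 CPM in each of the 4 groups, and a positive value means a higher change in D458. Transcription and chromatin regulators differed as follows: SIX2 (0.81), HMGA2 (-1.81), HEYL (-1.2), MAML2 (-1.02), NEUROD1 (-1.46), ATOH8 (-1.56), BHLHE41 (-1.06), SOX5 (-2.20), SOX12 (0.41), JUNB (-0.64), TCF7 (1.27), CEBPB (0.54), CRX (1.31), XBP1 (-0.60), PHF19 (1.19) and DNMT3B (1.19). Among signalling molecules and receptors the differences were those of BMP7 (-1.27), CHRD (-1.87), JAG1 (-0.86), FZD4 (2.96), KREMEN2 (1.69), FGFR2 (-0.85), ROR1 (-2.06), PLXND1 (2.82), TRAF2 (0.65), DUSP5 (-1.14), SH2D2A (-0.91), TRIB3 (0.40) and PIK3R4 (0.41). Neuronal, photoreceptor and channel genes on the list were GRIA1 (-2.47), GRIN1 (2.17), SYT1 (-0.59), SYP (-1.58), KCNJ11 (-1.73), SLC1A3 (0.94), IMPG1 (-2.56), RP1 (-1.18) and EYS (-1.02). Ribosomal and metabolic genes were RPL7A (1.01), RPL35 (0.77), EIF4EBP2 (-0.50), URM1 (0.62), IDH1 (1.42), PSAT1 (0.40), NDUFA4L2 (2.23) and DOLPP1 (0.58). The remaining genes were KRT17 (-2.86), SLCO4A1 (-3.75), EPB41L4A (3.96), CRYBG3 (-0.81), RCBTB1 (-0.60), HBE1 (-2.98), CTSV (2.67) and NDN (0.92). The EYA2 change itself was 0.81 lower in D458 on this scale (-0.81), which did not pass (adjusted p = 0.177). The genes given sizes here include CTSV, DOLPP1, TRAF2, URM1, RPL7A, RPL35 and PHF19 on chromosome 9. BMP7, SOX12 and DNMT3B are among those on chromosome 20. What lies behind the differences was not tested.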

How the results depend on the processing

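The hairpin 8 count of 3221 stayed within 1.5 times with RLE factors, DESeq2, no filter on low counts and the 9 D425 libraries alone. With the replicate block it was 5521 (2895 higher, 2626 lower), and 3934 genes differed between lines. In a fit of the compared libraries alone it was 2100 (1047 higher), 1114 genes differed between lines, and EYA2 (-0.99) did not pass (adjusted p = 0.13), nor did it in the 9 D425 libraries (-0.98, adjusted p = 0.0789). With the date as a block, chosen after seeing the data, it was 5173 (2759 higher, 2414 lower), and leaving out chromosomes 3, 9, 17 and 20, also chosen then, left 800 lower. Fewer samples are fitted when libraries are left out: counts then ran from 515 (without replicate 3) to 4141 (without replicate 1), higher 273 to 2241, lower 242 to 1900, genes that differed between lines 61 to 2341, and genes that differed between hairpins 0 to 16 (DESeq2 6). EYA2 ran from -1.28 to -0.51, and without replicate 2 did not pass (-0.98, adjusted p = 0.166). Small uncalled changes turned sign: EYA3 was 0.037 without control 1, 0.029 without control 3, 0.051 without hairpin 8 replicate 2 and 0.020 without replicate 3 (range -0.127 to 0.051), and MDM2 was -0.046 without hairpin 8 replicate 2 (range -0.046 to 0.622). The cause of these shifts was not tested. Of 189 named genes called, 140 kept the call without any single library, 68 under every alternative run, and none turned sign. Among the named genes the replicate block added EYA1, SIX3, MDM2, OTX2 and NRL to the calls and ended that of NTSR1, which rested on a few counts; it changed no other call of a named gene.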

Other observations

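Some of the larger changes lay side by side on a chromosome. In 15 places at least 3 consecutive tested genes were called in the same direction and at least 2-fold, 13 of them higher and 2 lower. All of them were found after the values were seen, and most of these genes fall outside the naming rule. On chromosome 10, STAMBPL1, ACTA2, FAS and LIPA rose together, with LIPA, the lysosomal acid lipase, at 18.4, 15 and 11.7 CPM in control and 29.4, 26.3 and 34.6 CPM with hairpin 8 (1.01 ± 0.18). On chromosome 7, CALCR, TFPI2, GNGT1 and GNG11 rose together. TFPI2, a secreted protease inhibitor, stood at 54.9, 17.3 and 10.2 CPM in control and 136, 101 and 99.7 CPM with hairpin 8 (2.03 ± 0.42), and GNG11, a G protein gamma subunit, rose by 1.79 ± 0.44. Control 1 was the highest control for both. On chromosome 2, ITGA4 (2.12 ± 0.53) and CERKL (1.06 ± 0.26) rose beside NEUROD1. On chromosome 4, FAM149A fell from 4.32, 6.19 and 7.65 CPM to 1.10, 1.5 and 1.09 CPM (-2.30 ± 0.27) and CYP4V2 by -2.10 ± 0.38, beside KLKB1, and ZNF876P, ZNF732 and ZNF141 fell in another place of that chromosome. Overlapping genes may share reads, and the globin and AKR1C places, which were also higher, hold close copies.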
